A study of Mus musculus with 7 samples.

Results

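Pericytes of the mouse ventricular-subventricular zone (V-SVZ) were examined in single-cell RNA sequencing data as the cells that passed a gate on raw counts of marker genes. A kept cell, with 500 to 7000 detected genes and at most 10% mitochondrial counts, was taken as a pericyte when it held at least 3 UMIs (unique molecular identifiers, each counting 1 captured mRNA molecule once) of Vtn, Kcnj8 and Higd1b together and at least 2 UMIs of Rgs5. It also had to hold at most 1 UMI of the contractile genes Acta2, Myh11 and Tagln together, at most 1 of the endothelial gene Cldn5 and 0 of the oligodendrocyte gene Mog. This gate took 700 of 43346 kept cells (1.61%), from 65049 barcodes in all.

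Pericytes are mural cells that sit within the basement membrane of capillaries, wrapped around endothelial cells. Endothelial PDGF-B recruits them through the receptor Pdgfrb, and they help to maintain the blood-brain barrier, to set the composition of the capillary matrix and to adjust capillary flow. In the V-SVZ, the adult neurogenic niche beside the lateral ventricle, NSCs contact the vessels that pericytes cover.

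The 7 libraries came from V-SVZ dissected from mice of postnatal day 31 to 33, with 2 to 3 mice of both sexes pooled in each. Control mice (3 libraries) are listed as Prdmflox/flox, Prdm16 cKO mice (3 libraries) as hGFAP-Cre+/-; Prdm16flox/flox, and Prdm16-Vcam1 DKO mice (1 library) as hGFAP-Cre+/-; Prdm16flox/flox; Vcam1flox/flox. All 3 groups thus carry a floxed Prdm16 gene, and the controls have no Cre. The human GFAP promoter drives this Cre in radial glia, which give rise to neurons and glia, whereas forebrain pericytes derive from neural crest. The comparison therefore asks whether mRNA levels of a vascular cell type outside the intended Cre lineage differed when Prdm16 was deleted in the cells around it.

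The control libraries held 127, 60 and 130 pericytes, the cKO libraries 144, 33 and 105, and the DKO library 101, where a library's number is its replicate number. Whole libraries held 45758003 to 141353017 UMIs, the summed pericytes of a library 200850 to 612695 UMIs, and the median pericyte 2814.5 to 6200 UMIs. No pericyte barcode was shared between libraries, although 442 pairs of kept cells, summed over pairs of libraries, carried the same barcode. Levels are given as CPM, the UMIs of a gene scaled by the total UMIs of the summed cells of a library. Since 3′ ends were counted, a CPM is not a level per transcript length, and values are compared between cells or groups, not between genes. Each library was a separate pool of mice, so the spread between libraries includes that between pools. One library stood apart in its pericytes: control 3 held 12941 CPM of hemoglobin and other red blood cell genes against 84.7 to 704 CPM in the other 6.

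The gate was clear of its limits for most members. The median pericyte of a library held 54 to 129.5 UMIs of Vtn, Kcnj8 and Higd1b together and 17 to 53 UMIs of Rgs5. Just inside, 10 members held exactly 3 UMIs of the former set, 16 held exactly 2 of Rgs5, 73 held 1 contractile UMI and 36 held 1 of Cldn5. Cells outside the gate were counted when they failed exactly 1 limit, by any distance. Of these, 116 failed only the limit on Vtn, Kcnj8 and Higd1b, and 102 only that on Rgs5. A further 197 failed only the contractile limit (23 of them with 2 to 4 such UMIs), 365 only that on Cldn5 and 159 only that on Mog.

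Pericytes were described beside all other kept cells and beside 2 vascular gates. Endothelial gate cells numbered 1778. A further 748 cells had at least 5 UMIs of Acta2, Myh11 and Tagln, but 563 of them also held more than 1 UMI of the ependymal genes Foxj1, Ccdc153 and Tmem212. Levels in contractile cells are therefore those of the remaining 185 cells, a limit added after the data were seen. They numbered only 11 (cKO 2) to 45 (control 3) per library. Their fibroblast genes summed to 856 to 7695 CPM over the control and cKO libraries, against 367 to 707 CPM in pericytes. What part this had in the means of contractile cells was not tested. The gate genes chose the cells, and their levels are only a description: Vtn, a vitronectin gene, stood at 14763 to 26545 CPM over the 7 libraries, Rgs5 at 6253 to 10804 and Higd1b at 798 to 1618 CPM. Rgs5 did not set pericytes apart from contractile cells, where its mean was 9316 CPM. None of the comparisons of pericytes with other cells was tested, since the same cells were chosen on their expression.

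The label was checked on 30 pericyte genes outside the gate, and 29 of them were higher than in the rest of the kept cells in all 7 libraries. Of the 30, 28 averaged over 100 CPM, 27 were higher than in endothelial gate cells in all 7 libraries, 20 were higher and 3 lower than in contractile cells in all 7. Pdgfrb, the receptor for endothelial PDGF-B, stood at 1566, 1846 and 1781 CPM in control libraries 1 to 3, at 1855, 2161 and 1900.3 CPM in cKO libraries 1 to 3 and at 1602 CPM in the DKO library. It averaged 35.0 CPM in the rest of the cells, 645 in contractile cells and 5.23 in endothelial cells. The 3 cKO libraries lay narrowly above the 3 controls, the nearest at 1855 against 1846 CPM. Atp13a5, a P5-type transport ATPase, averaged 1517 CPM against 145 in contractile and 1.39 in endothelial cells. Cspg4, which encodes the NG2 proteoglycan, averaged 495 against 353 and 2.09 CPM, and Anpep, the aminopeptidase CD13, 172 against 36.0 and 0.697 CPM. Notch3, the mural Notch receptor, and Des, which encodes the intermediate filament desmin, were no higher than in contractile cells, at 598 against 690.0 CPM and 116 against 503 CPM. Steap4 was nearly absent at 6.88 CPM. The share of all genes that met the same limits is not given here, so the counts of these 30 genes are a description. These levels did not go against the label of pericyte.

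**Figure D1:**
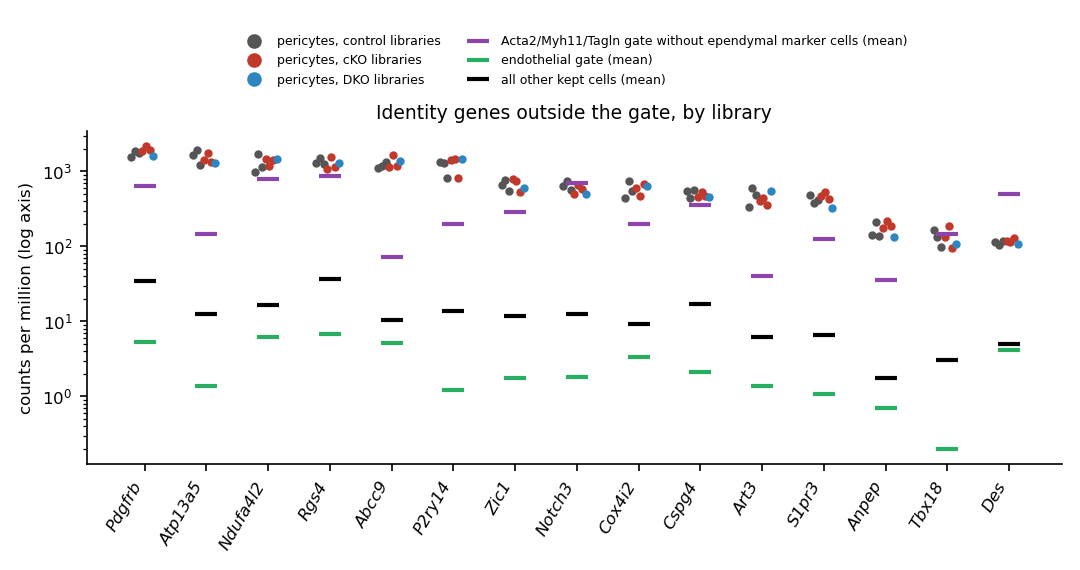
Levels of 15 pericyte genes outside the gate (CPM, log axis): points are the pericytes of each library, coloured by genotype, and bars are the means over libraries in contractile cells, endothelial gate cells and all other kept cells. Pdgfrb stood at 1566 to 2161 CPM in the pericytes of the 7 libraries, against a mean of 35.0 CPM in the other kept cells, while Des was higher in contractile cells.

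Kcnj8 and Abcc9 encode the pore (Kir6.1) and the sulfonylurea receptor (SUR2) of the ATP-sensitive potassium channel of mural cells, and they lie next to each other. In GRCm38, Kcnj8 spans chr6:142564837-142571614 and Abcc9 chr6:142587862-142702315, both on the minus strand, with 16247 bases between them. Kcnj8 was a gate gene, at 847 to 1159 CPM. Abcc9 was not used by the gate, and stood at 1094, 1171 and 1335 CPM in control, 1147, 1668 and 1196 CPM in cKO and 1367 CPM in DKO libraries. Its mean in contractile cells was 72.5 CPM and in endothelial cells 5.19 CPM, while Kcnj8 averaged 81.0 and 0.689 CPM there. Their promoters, 250 bases before to 50 after the RefSeq start (GRCm38.p6, minus strand, 5′ to 3′), are printed because these neighbours share a channel and a cell type. The windows are chr6:142571565-142571864 for Kcnj8 and chr6:142702225-142702524 for Abcc9, and capitals mark a match to TAAAAATA, a core of sites of MEF2 factors.
Kcnj8: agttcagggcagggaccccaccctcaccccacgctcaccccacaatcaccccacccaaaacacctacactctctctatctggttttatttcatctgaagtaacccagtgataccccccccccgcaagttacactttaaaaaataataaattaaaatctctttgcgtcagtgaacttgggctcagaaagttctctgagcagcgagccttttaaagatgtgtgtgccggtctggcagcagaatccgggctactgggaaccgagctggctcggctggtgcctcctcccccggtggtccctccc
Abcc9: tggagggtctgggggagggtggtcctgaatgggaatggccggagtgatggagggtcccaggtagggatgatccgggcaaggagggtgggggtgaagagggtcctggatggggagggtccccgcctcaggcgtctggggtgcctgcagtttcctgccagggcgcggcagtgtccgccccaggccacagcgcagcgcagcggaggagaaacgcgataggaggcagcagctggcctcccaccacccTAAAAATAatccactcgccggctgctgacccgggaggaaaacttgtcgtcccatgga
The GC content was 53.3% in the Kcnj8 window and 65.7% in that of Abcc9. The letters TGTTTAC (forkhead factors), AGGTGTGA (T-box factors) and TAAAAATA were searched on both strands. The Kcnj8 window held no match, and the Abcc9 window held TAAAAATA from base 244 on the printed strand. Of 32851 promoters of the same length, 3.65% held TGTTTAC, 1.28% AGGTGTGA and 2.72% TAAAAATA.

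The 25 genes with the largest ratio of pericytes to other kept cells were taken among 2543 genes outside the gate at 50 CPM or more in the pericytes of every library. Their log2 ratios ran from 7.24 to 6.28, and each was higher than in the rest of the cells in 7 of 7 libraries. They included channels and transporters (Abcc9, Atp13a5, Kcne4, Slc38a11, Slc6a20a and Atp2a3), surface peptidases and gamma-glutamyl transferases (Anpep, Enpep, Fap, Ggt1 and Ggt5), and receptors of nucleotides and leukotrienes (P2ry14 and Cysltr2). Pla1a, Sod3, Ifitm1, Ndufa4l2, Rem1, the forkhead gene Foxd1 and the noncoding genes Gm36823, Carmn and Tbx3os1 were also among them. Nodal, a TGF-β family ligand known from embryonic patterning, took the position after Gm36823 at 101, 187 and 139 CPM in control, 149, 59.7 and 135 CPM in cKO and 77.7 CPM in DKO pericytes. It averaged 0.819 CPM in the rest of the cells and had 3 UMIs in all contractile cells. Of the 25 genes, 17 had a RefSeq promoter in the table used, 23 promoters in all. TGTTTAC was in 3 of these (of Ifitm1 and P2ry14), AGGTGTGA in 0 and TAAAAATA in 1 (Abcc9).

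Against contractile cells alone, the 15 largest ratios were led by Nodal, Grm3, Abcc9, Emcn and Rorb, followed by Ggt1, Art3, Atp13a5, Ntn1, Aif1l, Uchl1, Gm36823, Pla1a, Slc6a20a and Tmem86a. Grm3, a metabotropic glutamate receptor, averaged 115 CPM in pericytes and 4.16 CPM in contractile cells, and Emcn, endomucin, 199 and 15.2 CPM. Emcn was higher in endothelial cells, at 477 CPM, and Rorb in the rest of the kept cells, at 154 CPM against 68.9. Against endothelial cells the largest ratios were those of Rem1, Carmn, Foxd1, Atp13a5, Pla2r1, Foxs1, P2ry14, Slc38a11, Tbx2, Ggt5, Ggt1, Pla1a, Sod3, Pcolce and Aspn. Foxs1, Tbx2, Pcolce and Aspn did not separate pericytes from contractile cells, with Aspn at 364 against 423 CPM.

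Among signals between pericytes and endothelium, levels of ligands varied. Pdgfb, the ligand of Pdgfrb, averaged 15.2 CPM in pericytes and 359 CPM in endothelial cells, and Cxcl12, a chemokine, 256 and 3761 CPM. Angpt1, the Tie2 ligand, averaged 16.0 CPM in pericytes and 129 CPM in contractile cells. The Notch targets Hes1 and Heyl averaged 456 and 248 CPM, and the Notch ligand Jag1 106 CPM. Gja4, the connexin 37 gene, averaged 350.4 CPM against 420.5 in contractile cells.

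Of the genes of vascular tone, those for the response to nitric oxide were present in pericytes and contractile cells alike, and several genes of contraction were higher in contractile cells. Gucy1b1 and Gucy1a1, the subunits of soluble guanylate cyclase, averaged 887 and 487 CPM in pericytes and 550.0 and 493 CPM in contractile cells, and Pde5a, which degrades cyclic GMP, 289 and 380.4 CPM. Ednra, the endothelin receptor, averaged 241 against 179 CPM. Tpm2, a tropomyosin, averaged 126 against 2275 CPM, Mylk, the myosin light chain kinase, 333 against 1304 CPM, and Pln, phospholamban, 0.88 against 478 CPM. Cald1, caldesmon, did not follow these, at 3645 against 3276 CPM.

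Levels of basement membrane and matrix genes varied widely in pericytes, with 19 of 30 listed genes at a mean over 100 CPM and Lama5, Col18a1 and Nid2 at 3.39, 6.49 and 36.5 CPM. Col4a1, the type IV collagen chain, averaged 1524 CPM in pericytes, 1791 in contractile and 823 CPM in endothelial cells. Lamc1 (laminin γ chain) averaged 1109.8, 507 and 108 CPM in the same order, Nid1 (nidogen) 831, 374 and 82.7 CPM, and Itga4, a subunit of an integrin that binds Vcam1, 573, 179 and 36.9 CPM. Among transporters, Slc6a20a, an imino acid transporter, averaged 1065 against 142 CPM in contractile cells, and Slc19a1, the reduced folate carrier, 696 against 316 CPM. Slc22a8, an organic anion transporter, was shared with endothelium, at 319 against 459 CPM.

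Shares of cells with a UMI were compared after each cell was thinned to 2000 UMIs, and shallower cells were left out. Of the 585 pericytes left, 94.2% held Pdgfrb, against 0.744% of 5508 oligodendrocytes and 0.814% of 1475 endothelial cells. Without thinning 94.3% of the 700 pericytes held it. Abcc9 was found in 81.9% (88.3% unthinned; 0.236% of oligodendrocytes) and Nodal in 21.0% (33.1%; 0.0182%). The myelin gene Mbp, which pericytes should lack, was found in 32.0% of pericytes, 28.1% of endothelial cells and 95.8% of oligodendrocytes. The share of pericytes with Mbp was therefore not read as expression, and its source was not tested.

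Markers of other cell types were present in the summed pericytes, and the contractile and fibroblast lists summed higher there than in all kept cells. Of 9 contractile genes outside the gate, Actg2 was at 0 and Cnn1 at 0.285 CPM, while Mylk (333 CPM) and Des averaged over 100 CPM. The 9 genes summed to 523 to 632 CPM over the control and cKO libraries, against 44.0 to 62.1 CPM in all kept cells. Of the endothelial genes Pecam1 averaged 3.85 and Cdh5 2.24 CPM, while Esam (248 CPM) and Emcn (199 CPM) were higher. Of the fibroblast genes Col6a3 was at 0, Lum at 0.233 and Col1a1 at 1.99 CPM, and Col1a2 averaged 300.2 CPM. The fibroblast genes summed to 367 to 707 CPM, against 80.0 to 191 CPM in all kept cells. Astrocyte and NSC genes summed to 851 to 3134 CPM over the 6 control and cKO libraries, neuroblast genes to 822 to 2773 CPM and oligodendrocyte genes to 971 to 2373 CPM. In all kept cells these lists summed higher, in that order to 5255 to 7373, 6486 to 9420 and 23884 to 34634 CPM. More than 2 UMIs of defining endothelial, microglial, astrocyte and NSC, or neuroblast markers were held by 24, 3, 73 and 21 pericytes, respectively, 114 cells in all. Counts of called genes are given with and without these cells.

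The spread among the pericytes of a library was measured as the variance over the mean of thinned UMIs, with 1 the value of pure counting noise. Its median was 1.12 over 1092 genes. Outside the gate genes and the noncoding or ribosomal-repeat transcripts Malat1 and Gm42418, the largest values were those of Cst3 (11.9), Apoe (8.16), Mbp (8.03), Jun (6.82), Fos (5.76), Mgp (5.69), Hspa1a (5.60), Nts (4.65), Ptn (4.50) and Junb (4.31). Cst3, Apoe and Mbp are abundant in glia, while Jun, Fos, Junb and Hspa1a are immediate early or heat shock genes. Nts, which encodes neurotensin, stood at 906, 424 and 338 CPM in control, 811, 553 and 318 CPM in cKO and 1060.0 CPM in DKO pericytes, and averaged 117 CPM in contractile cells and 20.1 CPM in the rest. Mgp, matrix Gla protein, averaged 642 CPM in pericytes and 1886 CPM in contractile cells.

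The pericyte share of kept cells was 1.65% (95% Wilson interval 1.38 to 1.95%), 1.27% (0.986 to 1.63%) and 1.37% (1.15 to 1.62%) in control libraries 1 to 3. It was 2.32% (1.97 to 2.72%), 1.77% (1.26 to 2.47%) and 1.64% (1.35 to 1.98%) in cKO libraries 1 to 3, and 1.46% (1.21 to 1.78%) in the DKO library. Intervals cover counting error only. The groups overlapped, since control library 1 lay above cKO library 3, and the means were 1.43% ± 0.20 (SD, n = 3) and 1.91% ± 0.36 (SD, n = 3). In each of the 3 pairs of equal replicate number the cKO share was the higher. The groups did not overlap with the stricter gate (1.23 to 1.40% in control and 1.57 to 2.27% in cKO libraries) or at most 5% mitochondrial counts (0.939 to 1.35% and 1.37 to 1.75%). They overlapped with the looser gate (1.31 to 1.87% and 1.79 to 2.32%). They also overlapped with the gate applied after thinning to 2000 UMIs (1.61 to 2.18% and 2.03 to 2.43%). The share follows from the gate, the dissociation and the number of other cells, so it was not tested. Among vascular gate cells, pericytes made up 22.5% ± 4.84 in control and 20.3% ± 4.74 in cKO libraries (SD, n = 3 each), the other order. With the ependymal marker cells left out of the contractile gate, these shares were 26.1% ± 4.62 and 25.2% ± 4.57.

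**Figure D2:**
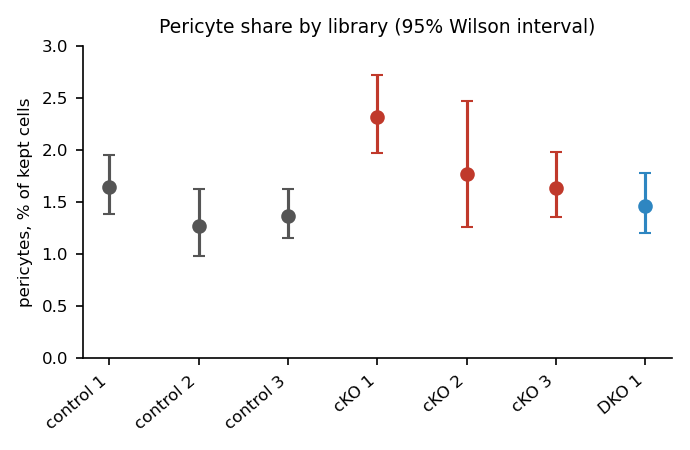
Pericytes as a percentage of kept cells in each library, with 95% Wilson intervals that cover counting error only. The control libraries lay at 1.27 to 1.65% and the cKO libraries at 1.64 to 2.32%, with an overlap of both groups.

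Prdm16 and Vcam1 were low in pericytes. Prdm16, a zinc finger transcription regulator, had 3, 0 and 6 UMIs in control, 1, 0 and 1 in cKO and 3 in DKO pericytes, or 9 of 1354498, 2 of 1124855 and 3 of 501910 UMIs. It averaged 5.50 ± 5.01 CPM in control and 1.45 ± 1.26 CPM in cKO pericytes (SD, n = 3 each), and the 6 libraries overlapped. In all kept cells Prdm16 stood at 14.6 to 19.8 CPM in control, 12.9 to 14.7 CPM in cKO and 16.2 CPM in DKO libraries, and since 3′ tags need not come from the deleted stretch these counts do not check the deletion. Vcam1, an adhesion molecule, had 11, 0 and 19 UMIs in control, 4, 1 and 5 in cKO and 0 in DKO pericytes, where 0 of 501910 UMIs allows up to 5.98 CPM. That is 18.5 ± 16.4 CPM in control and 8.13 ± 2.79 CPM in cKO pericytes (SD, n = 3 each), with an overlap of the groups through control 2 and a log2 fold change of -1.15 ± 0.82 (SE) that was not called. Prm1, a protamine gene whose 3′ end many Cre transgenes carry, had 0 of 1354498 UMIs in control pericytes, 4, 1 and 2 UMIs in cKO and 5 in DKO pericytes. That is 4.10 to 9.16 CPM in cKO pericytes, against 38.4 to 109 CPM in all kept cells of the same libraries and at most 0.0952 CPM in those of controls. At this depth, Prm1 in cKO pericytes was within the limit of 3 UMIs in 2 of 3 libraries.

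No gene passed the test between cKO and control pericytes. The summed counts were compared by edgeR's quasi-likelihood test in 1 fit of the 7 libraries, with Benjamini-Hochberg adjustment over 8706 genes outside the gate, and 0 genes (0.0%) had an adjusted p under 0.05. At an unadjusted p under 0.05 there were 256 genes, of which 147 were lower (1.69% of the genes tested) and 109 higher (1.25%) in cKO pericytes. The 3 cKO libraries lay wholly below the 3 controls for 479 genes (5.5%) and wholly above for 245 (2.81%). DESeq2 called 1 of 8703 genes (0.0115%), Clu. Libraries of equal replicate number deviated together from their group means, and with that number as a block 22 genes were called, 21 lower (0.241%) and 1 higher (0.0115%).

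No pericyte identity gene was called between genotypes. Of 29 identity genes tested, 0 had an unadjusted p under 0.05, and 19 had positive and 10 negative log2 fold changes (cKO over control), with a median of 0.11 against -0.0053 for all genes tested. The identity median was 0.038 without the pericytes that held markers of other types, and ranged from 0.022 (without cKO 2) to 0.17 (without control 2) when each library was left out. Pdgfrb had a log2 fold change of 0.25 ± 0.21 (SE), Abcc9 of 0.21 ± 0.23 and Atp13a5 of -0.02 ± 0.23. Ifitm1, an interferon-induced membrane protein gene, had the lowest p of the list, at 0.47 ± 0.25, and overlapped between the groups. Pdgfrb was the 1 identity gene of 29 whose groups did not overlap, against 2.81% of all genes with the cKO libraries wholly above.

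**Figure D3:**
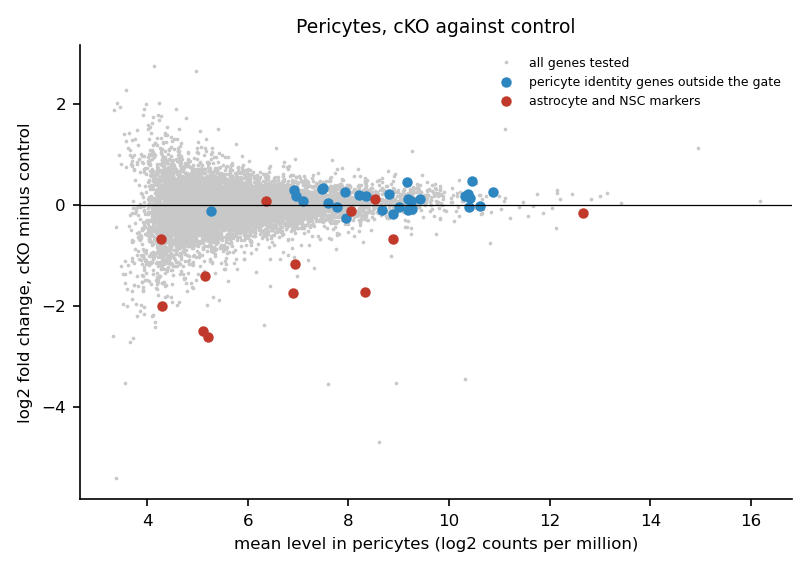
Log2 fold change of cKO over control pericytes against the mean level (log2 CPM), with 1 point per gene tested by edgeR, pericyte identity genes in blue and astrocyte and NSC markers in red. No gene was called without the replicate block, the identity genes lay between -0.26 and 0.47, and Gfap (-2.51) and Hes5 (-2.61) were the lowest of the red points.

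The functional lists also had 0 genes called without the replicate block, and their median log2 fold changes are given in brackets. With the block, Gja1 of the signalling list (-1.24, adjusted p = 0.0023, edgeR) and Apoe of the clearance list (-0.82, adjusted p = 0.00165, edgeR) were called lower, and without the pericytes that held markers of other types both were positive, at 0.30 and 0.13. Of 37 genes of signalling with endothelium 20 were positive and 17 negative (0.08), and Hes1 (0.48), Tgfb1 (-0.60) and Nrarp (-0.59) had an unadjusted p under 0.05. Hes1, a Notch target, stood at 380.2, 441 and 375 CPM in control, 538, 523 and 529 CPM in cKO and 406 CPM in DKO pericytes, with no overlap between control and cKO, while Nrarp, another target, lay the other way. Of 31 tone genes 18 were positive and 13 negative (0.04), with an unadjusted p under 0.05 for Tpm2 (0.54). Of 25 matrix genes 20 were positive and 5 negative (0.18), none with an unadjusted p under 0.05 and a median of -0.017 without the pericytes that held markers of other types, and Col4a1 overlapped at 1590.1, 1299.8 and 1441 CPM in control and 1225, 2056 and 1465 CPM in cKO. Of 25 transporters 11 were positive and 14 negative (-0.05), with an unadjusted p under 0.05 for Slc16a12, a member of the monocarboxylate transporter family (0.49). Of 19 genes of iron handling, clearance and barrier support 10 were positive and 9 negative (0.01). With each library left out, the transporter median ranged from -0.17 to 0.034, and that of the iron, clearance and barrier list from -0.095 to 0.13.

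Metabolic and stress genes also gave 0 calls without the replicate block. Of 78 nuclear genes of oxidative phosphorylation 62 were positive and 16 negative (median 0.19), of 13 mitochondrially encoded genes 12 and 1 (0.22), of 40 cytosolic ribosomal protein genes 35 and 5 (0.15), and of 22 genes of glycolysis and the hypoxia response 9 and 13 (-0.14). The ribosomal and oxidative phosphorylation medians ranged from -0.032 to 0.29 and from -0.022 to 0.38 when each library was left out in turn, with the lowest values without cKO 3. Without cKO 2 the medians of the matrix, tone and signalling lists were -0.011, -0.025 and -0.032. mt-Atp8, a mitochondrially encoded ATP synthase subunit, stood at 91.7, 88.2 and 207 CPM in control and 224, 249 and 248 CPM in cKO pericytes, and it was the gene called higher with the replicate block (adjusted p = 0.0316, edgeR). In endothelial gate cells mt-Atp8 stood at 105, 87.3 and 225 CPM in control and 248, 235 and 278 CPM in cKO libraries. In the contractile gate with its ependymal marker cells it stood at 170.5, 120 and 277 CPM and 354, 251 and 301 CPM, with an overlap. The higher level in cKO libraries was thus not particular to pericytes. Of 26 immediate early genes 14 were positive and 12 negative (0.12), of 17 heat shock genes 9 and 8 (0.05), and of 28 cytokine and interferon genes 15 and 13 (0.10). Immediate early genes with an unadjusted p under 0.05 were Socs3 and Jun, both lower, and Atf3, Gadd45b (0.74) and Nr4a2 (1.40), all higher, and Socs3 was also the 1 such cytokine gene. That is 2 of 26 lower and 3 higher, against 1.69% and 1.25% of all genes tested. Socs3, an inhibitor of cytokine signalling, stood at 31.3, 47.5 and 26.1 CPM in control, 13.7, 4.98 and 14.4 CPM in cKO and 43.8 CPM in DKO pericytes, with no overlap between control and cKO and a log2 fold change of -1.37 ± 0.45 that was not called. Jun had a log2 fold change of -0.57 ± 0.26. Atf3, a stress-induced transcription factor, stood at 4.47, 17.0 and 8.16 CPM in control and 4.58, 49.8 and 41.0 CPM in cKO pericytes (1.73 ± 0.74), and the groups overlapped. Socs3 in cKO 2 and Atf3 in control 1 and cKO 1 lay below the level of 3 UMIs (14.9, 6.71 and 6.87 CPM).

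**Figure D4:**
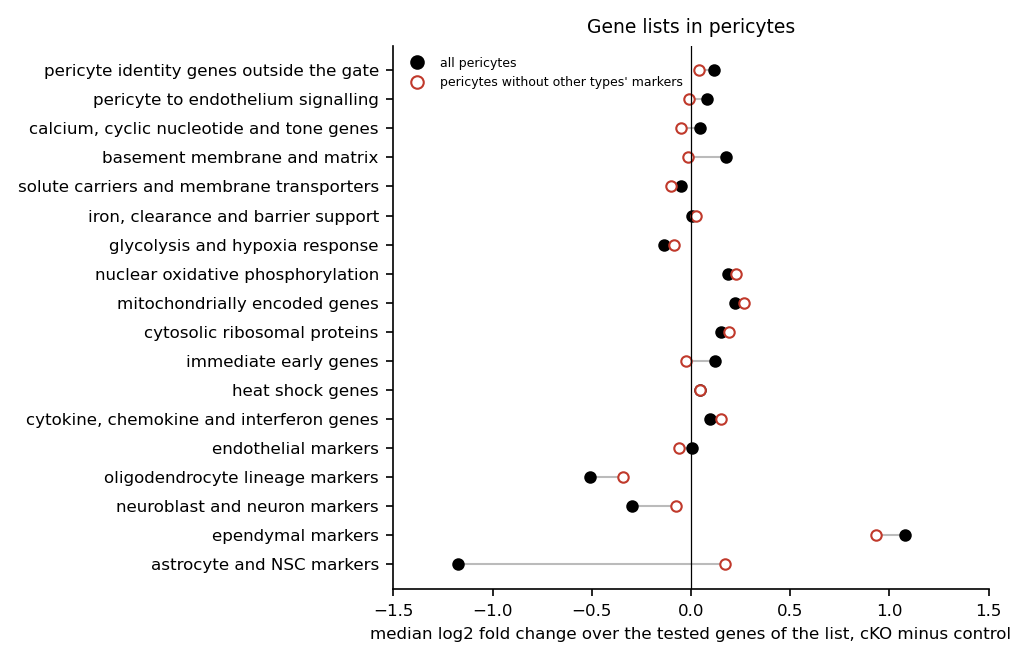
Median log2 fold change (cKO over control) over the tested genes of each list, in all pericytes (filled) and in pericytes without marker cells of other types (open). The astrocyte and NSC list stood at -1.17 (13 genes) and 0.17 (the 8 of them still tested), and the identity list at 0.11 and 0.038 (29 genes each).

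The genes named by lowest p among those of mean log2 CPM of at least 5 without overlap were not called by edgeR without the replicate block, and each then had an adjusted p of 0.999 (edgeR) and an exact two-sided permutation p of 0.1, the smallest that 3 libraries against 3 allow. On the higher side these were D16Ertd472e, Gng2, Plekhj1, Gulp1 and Lyrm2. Gng2, a G protein γ subunit, stood at 219, 190.0 and 204 CPM in control libraries 1 to 3, 355, 324 and 293 CPM in cKO libraries 1 to 3 and 373 CPM in the DKO library, a log2 fold change of 0.72 ± 0.22 (SE). The DKO value lay above all 3 controls. Gulp1, an engulfment adaptor, stood at 17.9, 23.8 and 19.6 CPM in control and 43.5, 39.8 and 39.0 CPM in cKO pericytes (1.07 ± 0.36). On the lower side were Gfap, Hes5, Clu and Acsl3. Acsl3, an acyl-CoA synthetase gene, stood at 129.7, 84.8 and 189 CPM in control, 73.3, 59.7 and 65.7 CPM in cKO and 104 CPM in DKO pericytes (-0.99 ± 0.29). Its log2 fold change was -0.46 without the pericytes that held markers of other types, and -1.22 to -0.60 with each library left out.

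Genes known from astrocytes and NSCs led those that lay lower in cKO pericytes. Gfap, the astrocyte intermediate filament, stood at 62.6, 17.0 and 73.4 CPM in control, 4.58, 14.9 and 10.3 CPM in cKO and 5.98 CPM in DKO pericytes (-2.51 ± 0.56 SE). Its UMIs numbered 28, 5 and 45 in control, 2, 3 and 5 in cKO and 3 in DKO pericytes. Gfap in cKO 1, cKO 2 and the DKO library was thus within the limit of 3 UMIs. Hes5, a Notch target of NSCs, stood at 44.7, 27.1 and 88.1 CPM in control and 13.7, 0 and 8.21 CPM in cKO, and Clu, clusterin, at 631, 231 and 654 and 188, 94.6 and 149.8 CPM. For all 3 genes the controls lay above the cKO libraries, with control 2 nearest to them. Replicates 1 and 2 were counted with version 6.0.1 of Cell Ranger and replicate 3 with 6.1.1, and within each version, in that order, the log2 difference (pseudocount of 1 CPM) was -1.84 and -2.72 for Gfap, -3.22 and -3.27 for Hes5, and -1.51 and -2.12 for Clu. Of the 13 astrocyte and NSC markers tested 11 were negative and 2 positive, with a median of -1.17, and 5 had an unadjusted p under 0.05 (Aldoc, Gfap, Clu, Thbs4 and Hes5), against 1.69% of all genes tested. With the replicate block 5 of the 13 were called lower, against 0.241% of all genes. The 21 genes called lower with the block were Gfap, Hes5, Clu, Enho, Cpe, Fbxo2, Bcan, Gpm6b, Ddah1, Aldoc, Ntrk2, Scg3, Id2, Crym, Gpm6a, Apoe, Ttyh1, Cspg5, Gja1, Hbb-bt and Hba-a1. In endothelial gate cells Cspg5 was also lower without overlap, at 142, 79.8 and 121 CPM in control and 61.8, 12.8 and 54.7 CPM in cKO. So was Bcan, at 40.5, 38.3 and 42.2 CPM and 35.0, 7.49 and 29.9 CPM. Gfap lay higher in cKO endothelial cells, and the groups overlapped there for the other genes.

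This RNA was spread unevenly over pericytes. More than 2 UMIs of Aldoc, Slc1a3, Gfap, Aqp4 and Thbs4 together were found in 73 of 700 pericytes, and these held 1059 of all 1382 such UMIs in pericytes. By library they held 86.7%, 59.0% and 86.9% of these UMIs in control, 75.4%, 44.1% and 58.5% in cKO and 57.3% in DKO pericytes. They numbered 19 of 127, 9 of 60 and 10 of 130 in control libraries, 14 of 144, 4 of 33 and 6 of 105 in cKO libraries and 11 of 101 in the DKO library. The summed astrocyte and NSC markers (12 genes of the list) stood at 2963, 1028 and 3134 CPM in control, 1694, 851 and 1578 CPM in cKO and 1026 CPM in DKO pericytes, so control 2 lay among the cKO libraries. Without the 114 pericytes that held markers of other types they stood at 534, 495 and 705 CPM in control, 586, 848 and 984 CPM in cKO and 666 CPM in DKO pericytes. Mt3, of the same list, gave 66.7, 98.1 and 263 CPM of these sums in control and 121, 459 and 487 CPM in cKO pericytes. Only 8 of the 13 markers had enough counts to be tested there, with a median of 0.17 against -0.42 for the same 8 genes in all pericytes, and 6 were positive and 2 negative. Clu stood at 0.04, while Aldoc kept a negative value of -0.77. Gfap and Hes5 were not tested there: Gfap had 3, 2 and 1 UMIs in control and 1, 1 and 5 in cKO pericytes, and Hes5 had 2, 5 and 2 and 1, 0 and 0 UMIs. In endothelial gate cells of the same libraries the 12 genes stood at 1353, 1110 and 1674 CPM in control, 1324, 598 and 1910 CPM in cKO and 1002 CPM in DKO libraries. The cells left out had been chosen in part by UMIs of these same genes. Without these cells 0 of 7306 genes were called (215 with an unadjusted p under 0.05).

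**Figure D5:**
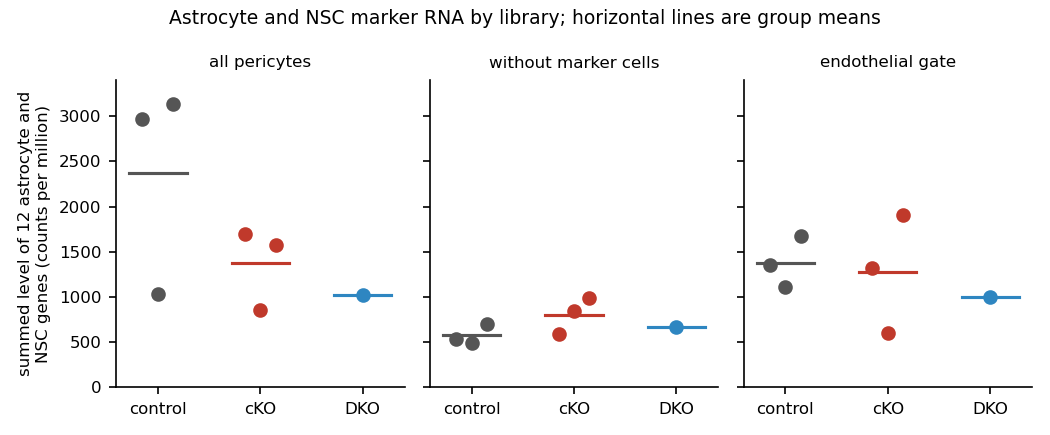
Summed CPM of 12 astrocyte and NSC markers per library in all pericytes, in pericytes without marker cells of other types and in endothelial gate cells, with horizontal lines for group means. In all pericytes the means were 2375 CPM (control) and 1375 CPM (cKO), and without marker cells 578 and 806 CPM.

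With those cells left out and the replicate block kept, 5 genes were called, 3 lower (0.0411%) and 2 higher (0.0274%), and 3 of them were among the 22 called in all pericytes. Mt3, a metallothionein, was called higher (1.30 ± 0.23, adjusted p = 0.00106, edgeR), as was mt-Atp8 (1.12 ± 0.24, adjusted p = 0.0343, edgeR). Dbp, a circadian transcription factor, was called lower (-1.48 ± 0.26, adjusted p = 0.00106, edgeR), as were the hemoglobin genes Hbb-bt (-3.99 ± 0.35) and Hba-a1 (-3.64 ± 0.44). In all pericytes the groups overlapped for Mt3, at 255, 210 and 566 CPM in control and 202, 413 and 488 CPM in cKO libraries. They also overlapped for Dbp, at 38.0, 462 and 202 CPM in control and 29.8, 99.6 and 144 CPM in cKO libraries. Of the 21 genes called lower with the block, 14 could be tested without the marker cells, where 6 had a positive log2 fold change and the median was -0.20 against -1.22 in all pericytes. The size of the hemoglobin values turned on control 3: Hba-a1 stood at 15.7, 136 and 2649 CPM in control and 6.87, 34.9 and 185 CPM in cKO pericytes. Without control 3 the log2 fold change was 0.34 for Hba-a1 and 0.84 for Hbb-bt, and the median of 5 red blood cell genes was 0.59 instead of -3.53, in fits that kept cKO 3. Within each of the 3 pairs of equal replicate number both genes were lower in the cKO library, and with replicate 3 left out of both groups (the libraries of Cell Ranger 6.0.1) the log2 fold change of Hba-a1 was -1.98. Replicates 1 and 2 held few such UMIs: 7 and 40 in control against 3 and 7 in cKO for Hba-a1. For Hbb-bt they held 6 and 7 against 4 and 2 UMIs.

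Other marker lists gave 0 called genes. All 10 oligodendrocyte genes were negative (median -0.51, with Mag and Cldn11 under an unadjusted p of 0.05 by edgeR), as were 11 of 15 neuroblast and neuron genes (-0.30, with Tubb3). The neuroblast median was 0.033 without control 1 and 0.027 without cKO 2, and -0.59 without cKO 3. The oligodendrocyte median ran from -0.86 without cKO 3 to -0.32 without cKO 2. The oligodendrocyte sum stood at 1982 to 2373 CPM in control and 971 to 2038 CPM in cKO pericytes, and at 1685 to 2177 and 1400 to 2323 CPM in endothelial gate cells, and its part in other results was not tested. All 6 ependymal genes were positive (1.08, with Dynlrb2 under an unadjusted p of 0.05), with a sum of 510 to 814 CPM in control and 901 to 987 CPM in cKO pericytes. Most of that sum was Rarres2 (485, 709 and 700.2 CPM in control and 904, 762 and 817 CPM in cKO), which averaged 489 CPM in contractile cells too. The medians were 0.00 for 6 endothelial, 0.18 for 5 contractile, 0.29 for 3 fibroblast and 0.04 for 9 microglial genes. With each library left out they ranged, in that order, from -0.12 to 0.14, 0.086 to 0.37, 0.078 to 0.49 and -2.30 to 1.82.

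The cKO effect in pericytes was compared with that in other vascular cells of the same libraries by an interaction term, with the library as a block. Against endothelial gate cells 1 of 9916 genes was called (lower, 0.0101%), Gfap, with a difference of effects of -3.92 ± 0.60 (SE, log2) and an adjusted p of 0.0031 (edgeR). Mean Gfap was 51.0 CPM in control and 9.93 CPM in cKO pericytes, and 7.77 and 18.0 CPM in endothelial cells. Without the pericytes that held markers of other types 0 genes were called, and likewise without control 1 or without control 3, while 8 were called without control 2. The Gfap difference was -4.34 to -3.21 with each library left out. Gfap was itself among the markers that chose the pericytes with markers of other types. Against all 748 cells of the contractile gate 10 of 9432 genes were called (lower, 0.106%): Ntsr2, Gfap, Clcn4, Enho, Glul, Kcnk1, Prex2, Acsl3, Ddah1 and Cldn10. Most cells of that gate held ependymal genes, and with those left out the call fell on 1 gene, Arpp21, while 0 were called without pericytes that held markers of other types and 0 without cKO 3. No identity gene of pericytes was called in either comparison.

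The DKO library had no replicate and was not tested. Its pericytes lay within the range of the other 6 libraries for Abcc9, at 1367 CPM, and for Pdgfrb, at 1602 CPM. They lay outside that range for Id3, a target of BMP signalling, with 185 CPM against 707, 679 and 591 CPM in control and 989, 1060.5 and 441 CPM in cKO pericytes. Jun stood at 1158 CPM in DKO pericytes against 528, 614 and 643 CPM in control and 412, 229 and 495 CPM in cKO, and Heyl at 145 CPM against 255, 282 and 253 and 238, 224 and 337 CPM. These 3 genes were picked after their values were seen. The share of all genes for which the DKO library lay outside the range of the other 6 is not given here. These values are therefore no measure of a DKO difference. Jun also had a large spread among the pericytes of a library (variance over mean 6.82).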

How the data were processed

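Counts were used as the authors deposited them: raw UMI counts per gene and barcode from Cell Ranger, with no normalization. Headers of the files give 6.0.1 as its version for replicates 1 and 2 of both larger groups, otherwise 6.1.1, and the submitters' processing notes name 6.1.1 and mm10. Of 32285 gene identifiers 99.6% matched GENCODE vM21. Pericyte counts were summed per library and compared in R 4.3.3 with edgeR 4.0.16 (expression filter, TMM, robust quasi-likelihood test, adjusted p under 0.05), with DESeq2 1.42.0 as an alternative. Gate genes were left out of the tests. Same-numbered libraries deviated together (correlations of 0.21, 0.15 and 0.28 over 8359 genes), so the replicate number was also used as a block. Pairs of libraries of 1 group differed by more than the counting noise of independent UMIs (chi-square per degree of freedom 2.99 to 5.92). These values also include the spread among the cells of a library, so they do not measure differences between libraries alone. No doublet caller was run, and the gate and the limit on detected genes stood in. Tests were tried on simulated data. Members, gene lists and alternatives were chosen with earlier results of these data known. Genes were named from these lists (highest CPM or lowest p), as the 25 and 15 largest ratios to other cells, as the 5 lowest p per direction without overlap and mean log2 CPM of at least 5, and as called genes, and a few genes that these rules name are not reported here. The alternatives are named with their values in the closing section. Limits on other cell types' markers and on ependymal genes were added after the data were seen. Promoters are from RefSeq (GRCm38.p6).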

Additional observations from a re-analysis of the deposited data

Results flagged for a closer look

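The cKO effect on Gfap differed between pericytes and endothelial gate cells of the same libraries by -3.92 on the log2 scale (edgeR, adjusted p = 0.0031). No gene was called in this comparison without control 1, without control 3 or without the pericytes that held markers of other types. The Gfap difference itself was -4.34 to -3.21 with each library left out. Gfap was among the markers that chose those pericytes, so a call lost without them does not decide the source of the difference. In pericytes Gfap stood at 62.6, 17.0 and 73.4 CPM in control and 4.58, 14.9 and 10.3 CPM in cKO libraries. Its UMIs there numbered 28, 5 and 45 against 2, 3 and 5, so cKO 1 and cKO 2 were within the limit of 3 UMIs. In endothelial cells Gfap stood at 5.41, 8.51 and 9.38 CPM in control and 10.6, 10.7 and 32.7 CPM in cKO libraries.

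Against the cells with at least 5 UMIs of contractile genes, the cKO effect in pericytes differed for 10 genes (edgeR, adjusted p under 0.05). The differences were -4.39 for Gfap, -2.87 for Kcnk1, -2.85 for Ddah1, -2.71 for Ntsr2, -2.53 for Enho, -2.44 for Cldn10, -1.77 for Glul, -1.75 for Clcn4, -1.71 for Prex2 and -1.61 for Acsl3. Ntsr2, a neurotensin receptor found in astrocytes, stood at 127, 40.7 and 119 CPM in control and 75.6, 19.9 and 88.2 CPM in cKO pericytes, and at 29.1, 19.0 and 27.4 CPM and 73.8, 86.7 and 168 CPM in the other cells. Prex2 averaged 230.2 CPM in control and 176 CPM in cKO pericytes, against 20.2 and 63.4 CPM there. Of these comparison cells 563 of 748 held more than 1 UMI of ependymal genes. Without them 1 gene was called, Arpp21, which is none of these 10, and 0 were called without cKO 3 or without the pericytes that held markers of other types. The Gfap difference was -4.91 to -3.56 with each library left out, and Gfap was among the markers that chose those pericytes.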

How the results depend on the processing

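The number of genes called between cKO and control pericytes was 0 under relative log expression factors, without the DKO library, with the Cell Ranger version as a block, at most 5% mitochondrial counts, the stricter and looser gates, equal totals, equal cells, no abundant transcripts and no marker cells. It was 1 by DESeq2, 8 without a filter on low counts, 22 with the replicate block, 1 (Gm42418) in the libraries of Cell Ranger 6.0.1 alone, 5 without marker cells of other types with the replicate block, and 0 to 2 with each library left out: 2 without control 2 (Gfap and Clu) or control 3 (Lars2 and Gm42418), 1 without cKO 2 (Pla2g7). The limit on other types' markers first planned left 1 of 700 cells and was not run. The interaction gave 10 (endothelial) and 68 (contractile) genes without a filter, 0 and 1 (Clcn4) with the stricter gate, 0 and 0 without marker cells, 1 without ependymal marker cells, and 0 to 8 (8 without control 2) and 0 to 24 (19 without control 2, 24 without cKO 1, 0 without cKO 3) with each library left out.

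List medians moved with equal cells per library to -0.064 for identity, -0.12 for signalling, -0.11 for tone, -0.34 for contractile, 3.64 for microglial and 0.28 for ependymal genes, with at most 5% mitochondrial counts to -0.25 for glycolysis and -0.20 for immediate early genes, in the libraries of version 6.0.1 to -0.033 for signalling and 0.20 for heat shock, for cytokine genes to 0.29 without the DKO library and 0.25 with the looser gate, and for fibroblast genes to 1.17 with the looser gate. The astrocyte and NSC median was 0.17 without marker cells, over 8 of 13 genes, with or without the replicate block. Leaving out each library gave medians of -1.61 to -0.71 for astrocyte and NSC, -0.032 to 0.12 for signalling, 0.13 to 0.27 for mitochondrially encoded, -0.28 to 0.25 for immediate early, -0.029 to 0.23 for cytokine, -2.30 to 1.82 for microglial, 0.66 to 1.97 for ependymal, and -5.43 to 0.59 for red blood cell genes. The difference in pericyte share (cKO minus control, 0.48 percentage points) ranged from 0.27 (without cKO 1) to 0.61 (without cKO 3), and was -2.27 of vascular gate cells and -0.96 without ependymal marker cells.

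Without marker cells, log2 fold changes turned to 0.040 for Clu (0.038 with the replicate block as well), 0.12 (0.17) for Cpe, 0.17 (0.15) for Gpm6b, 0.065 (0.031) for Gpm6a, 0.13 (0.11) for Apoe and 0.30 (0.31) for Gja1. Others stayed below 0: Scg3 at -0.998, Bcan at -0.81, Aldoc at -0.77, Acsl3 at -0.46, Ttyh1 and Cspg5 at -0.38, and Ntrk2 at -0.015. Acsl3 turned to 0.33 with equal cells, Ntsr2 to 0.041 with the stricter gate and 0.72 with equal cells, and with each library left out Hbb-bt ranged from -5.19 to 0.84 and Hba-a1 from -5.80 to 0.34, both positive only without control 3. The cause was not tested. With 33 to 144 pericytes a library, genes such as Prdm16 at a few UMIs could not be compared.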

Other observations

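Ptn, which encodes the growth factor pleiotrophin, averaged 10581 CPM in pericytes, 3179 CPM in contractile cells and 1613 CPM in the rest of the kept cells. It stood at 10066, 11331 and 9938 CPM in control, 12420.2, 8723 and 9653 CPM in cKO and 11936 CPM in DKO pericytes, so the groups overlapped. Igf2, an insulin-like growth factor, stood at 584, 441 and 504 CPM in control, 671, 1016 and 532 CPM in cKO and 1014 CPM in DKO pericytes, with a log2 fold change of 0.59 that was not called. Igf2 averaged 374 CPM in contractile cells and 7.14 CPM in endothelial cells. Both genes were chosen after their values were seen.

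Gm42418, a transcript that overlaps a ribosomal RNA repeat, stood at 7667, 5786 and 45071 CPM in control, 25424, 41573 and 58874 CPM in cKO and 27166 CPM in DKO pericytes. Control libraries 1 and 2 lay below the other 5 libraries.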
